A study of Homo sapiens with 9 samples.

Results

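The genes described here are the 10 members of the MYC network that carry the symbols MYC, MYCN, MYCL, MAX, MXD1, MXD3, MXD4, MXI1, MNT and MLX. They were picked out by gene symbol from 60966 gene identifiers in the transcript tables, and all 10 were listed. Their mRNA was measured by RNA-seq in H1299, an established human line of non-small cell lung cancer. Cells received a Scramble control siRNA or 1 of 2 siRNAs against FIBP, Si-FIBP#1 and Si-FIBP#2, and RNA was taken 48 h after transfection. Each of the 3 groups had 3 samples, 9 in all, which were all of this cell line, transfected with an siRNA and harvested after 48 h. The study's methods speak in general of independently repeated experiments, but the labels do not say whether the 3 samples of a group were separate cultures, so the p-values measure the spread between these samples, which may be technical. FIBP, the FGF1 intracellular binding protein, is a partner of the growth factor FGF1, and its mRNA was the target of both siRNAs. The question asked of the network was which of its genes changed in level when FIBP was silenced, and whether both siRNAs gave the same change.

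The network is built on dimers. MYC, MYCN and MYCL are basic helix-loop-helix leucine zipper transcription factors that bind DNA only together with MAX, and the MYC-MAX dimer activates genes for growth, ribosome production and metabolism. MXD1, MXD3, MXD4, MXI1 and MNT compete for MAX, bind the same E-box sequence and recruit SIN3 co-repressors. MLX is a relative of MAX that pairs with the glucose-sensing factors MLXIP and MLXIPL, and also with some of the MXD proteins and MNT. In lung cancer cells MYC is a common driver of proliferation, whereas MXD proteins are mostly linked to differentiation and rest, apart from MXD3, which is known from cycling cells.

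FIBP was silenced in every sample of both siRNA groups. It measured 88.38, 79.49 and 77.74 FPKM (fragments scaled to transcript length and library size, so that levels of different genes can be compared) after Scramble, 7.49, 7.77 and 4.30 after Si-FIBP#1 and 7.13, 5.92 and 8.21 after Si-FIBP#2. The remaining level was 7.96% and 8.66% of the Scramble mean, and the siRNAs did not differ from each other in the test (log2 difference 0.13, SE 0.18, adjusted p = 0.686). The depth, estimated from the steps between low values, was 20150000 to 23800000 fragments per sample, and 13894 to 14715 genes reached 1 FPKM. The libraries held the markers of a mesenchymal-like carcinoma line, with KRT8, KRT18, VIM and CDH2 detected throughout and EPCAM at 0.28 FPKM or below. The sum of these 5 markers was 3740 to 3967 FPKM after Scramble, 2450 to 2775 after Si-FIBP#1 and 1821 to 2520 after Si-FIBP#2, and its part in the results was not tested. VIM made up most of this sum, with means of 3232, 2307 and 1988 FPKM. KRT8, KRT18 and VIM lay wholly below Scramble with both siRNAs, whereas CDH2 lay wholly above it, at 130% and 137% of the Scramble mean. None of the 13 markers of leukocytes, endothelium and erythroid cells reached 1 FPKM in any sample.

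MYC was the most abundant member in the Scramble samples, at 77.6 ± 6.24 FPKM (mean ± SD, n = 3 here and below). MAX followed at 47.3 ± 5.91 FPKM, and the lowest MYC sample lay above the highest MAX sample. MXD3 at 22.7 ± 1.24, MLX at 19.8 ± 1.73 and MXD4 at 19.6 ± 2.10 FPKM came next, and neighbours in this order overlapped. MXI1 at 12.6 ± 0.898, MNT at 9.66 ± 1.59 and MXD1 at 6.09 ± 0.186 FPKM were lower and did not overlap with each other. MYCL stood at 0.12 ± 0.052 FPKM, and MYCN was listed at 0. MYC was therefore the one member of its own family that reached 1 FPKM, whereas all 5 MXD and MNT repressors did. With Si-FIBP#1 and Si-FIBP#2 the order of the repressors was different, and MXD4 became the most abundant of them.

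In the tests below, a fold change is a difference of log2(FPKM + 1), and adjusted p-values come from limma with Benjamini-Hochberg adjustment over all 14985 genes that reached 1 FPKM in at least 3 samples. Of the 10 members, 8 met this filter. The contrasts of Si-FIBP#1 and of Si-FIBP#2 against Scramble share their control samples. These are bulk samples, so fewer cells expressing a gene and less RNA per cell cannot be told apart. With Si-FIBP#1, 4 of the 8 members passed an adjusted p of 0.05, 3 of them higher (MXD4, MNT, MLX) and 1 lower (MXD3). Among all genes tested 47.7% passed, 27.8% as higher and 19.9% as lower, so the share of members was near the background. With Si-FIBP#2, 5 of the 8 members passed, 3 higher (MXD4, MNT, MLX) and 2 lower (MXD3, MYC), where 48.8% of all genes passed, 31.1% as higher and 17.7% as lower. The higher and lower shares of all genes depend on the scaling, because 4653 genes rose and 2656 fell after Si-FIBP#2 on the deposited values, against 3567 and 3421 after scaling each sample by its median ratio. That scaling also changed which members passed. MLX with Si-FIBP#1 (adjusted p = 0.0862) and MNT with Si-FIBP#2 (0.0959) no longer passed. MXD1 with Si-FIBP#1 (0.0448) and MAX with Si-FIBP#2 (0.0289) passed as lower. When both siRNAs were compared jointly, 5 members passed beside 53% of all genes. A change of more than 2-fold on this scale was seen for MXD3 alone, with each siRNA and with both jointly, where 5.66%, 5.05% and 4.81% of all genes reached it.

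MYC separated the 2 siRNAs. It measured 80.88, 70.43 and 81.55 FPKM after Scramble, 80.62, 79.57 and 76.28 after Si-FIBP#1 and 49.35, 48.70 and 46.01 after Si-FIBP#2. The Si-FIBP#1 samples overlapped with the Scramble samples, whereas every Si-FIBP#2 sample lay below all 6 others. The mean after Si-FIBP#2 was 61.9% of the Scramble mean, a log2 fold change of -0.68 (SE 0.064, 95% interval -0.82 to -0.54, adjusted p = 3.11e-05). For Si-FIBP#1 it was 0.02 (SE 0.064, 95% interval -0.12 to 0.17, adjusted p = 0.777), and its sign turned under the TPM and median-ratio scalings and without Scramble replicate 2. The difference between the siRNAs was itself tested and was -0.70 on the log2 scale (SE 0.064, adjusted p = 0.00032). MYC was the 1 member of 8 that differed between the siRNAs, where 15.4% of all genes did, and no member differed by more than 2-fold, where 0.561% of all genes did. That background changed when single libraries were left out. Of all genes, 2304 of 14985 passed between the siRNAs. The number was 1357, 1354 and 1776 without Si-FIBP#1 replicates 1, 2 and 3. It was 1476 and 1268 without Si-FIBP#2 replicates 1 and 3, but rose to 2821 without Si-FIBP#2 replicate 2. Genes over 2-fold numbered 84, and 128 without Si-FIBP#2 replicate 2. The gene lies on chromosome 8 from 127735434 to 127741434 (GRCh38, GENCODE 29).

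MYCN and MYCL, the neuronal and lung cancer associated relatives of MYC, gave no test. MYCN was listed at 0 in all 9 samples. MYCL was at 0.15, 0.15 and 0.06 FPKM after Scramble, 0.29, 0.26 and 0.28 after Si-FIBP#1 and 0.13, 0.26 and 0.18 after Si-FIBP#2. These values are below the filter of 1 FPKM, and the Si-FIBP#1 samples lay above the Scramble samples while those of Si-FIBP#2 overlapped with them.

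MAX, the obligate partner of MYC, was measured at 41.80, 53.54 and 46.55 FPKM after Scramble, 45.31, 37.64 and 38.65 after Si-FIBP#1 and 28.70, 46.66 and 33.55 after Si-FIBP#2. The groups overlapped in both comparisons. These sums include ENST00000554709, a retained-intron transcript of 327 nt at 9.83, 21.54 and 14.98 FPKM after Scramble. With that transcript left out of the sum, every siRNA sample lay below all Scramble samples. For Si-FIBP#1 the margin was small, and its estimate ranged from -0.30 to -0.04 across alternatives and passed in none. The log2 fold change was -0.22 (SE 0.16, adjusted p = 0.298) after Si-FIBP#1 and -0.39 (SE 0.16, 95% interval -0.75 to -0.03, adjusted p = 0.0677) after Si-FIBP#2. The second passed without Si-FIBP#2 replicate 2 (-0.59, adjusted p = 0.00439) and, with all samples, after median-ratio scaling (-0.49, adjusted p = 0.0289) and over transcripts of 400 nt or longer (-0.28, adjusted p = 0.0163), the last added after the values were seen. Across alternatives the adjusted p for Si-FIBP#2 ranged from 0.00439 to 0.219. MLX, the MAX-like partner of the glucose-sensing factors, was at 21.77, 19.27 and 18.46 FPKM after Scramble, 23.47, 23.09 and 23.46 after Si-FIBP#1 and 23.42, 24.88 and 27.77 after Si-FIBP#2. All samples of both siRNAs lay above all Scramble samples. The rise after Si-FIBP#2 was 0.34 on the log2 scale (SE 0.079, adjusted p = 0.006) and passed under every alternative. The rise after Si-FIBP#1 was 0.23 (SE 0.079, adjusted p = 0.0388), and 9 of 18 alternatives ended the call, among them the fits without Scramble replicate 2 (0.108), without Scramble replicate 3 (0.131) and without Si-FIBP#1 replicate 1, 2 or 3 (0.0845, 0.0787 and 0.0867), values that are adjusted p-values.

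MXD3 and MXD4 moved in opposite directions. MXD3, the repressor known from S phase of cycling cells, measured 23.75, 21.33 and 22.97 FPKM after Scramble, 8.68, 7.65 and 6.24 after Si-FIBP#1 and 10.76, 8.55 and 8.99 after Si-FIBP#2. The highest sample with an siRNA was below the lowest Scramble sample. The means with the siRNAs were 33.2% and 41.6% of Scramble, with log2 fold changes of -1.48 (SE 0.12, adjusted p = 9.42e-06) and -1.19 (SE 0.12, adjusted p = 3.96e-05), and the estimated fall exceeded 2-fold in all 18 alternatives for each siRNA. The 95% intervals were -1.75 to -1.22 and -1.45 to -0.93, so that for Si-FIBP#2 also held falls under 2-fold. The difference between the siRNAs was 0.30 (95% interval 0.03 to 0.56, adjusted p = 0.122) and did not pass. MXD4, a repressor linked to differentiating and resting cells, measured 22.01, 18.10 and 18.72 FPKM after Scramble, 31.34, 30.63 and 27.90 after Si-FIBP#1 and 32.53, 28.97 and 31.83 after Si-FIBP#2. Again the groups did not overlap. The siRNA means were 153% and 159% of Scramble, with log2 fold changes of 0.59 (SE 0.084, adjusted p = 0.000375) and 0.64 (SE 0.084, adjusted p = 0.000223), and both calls held under all alternatives tried. The siRNAs differed by 0.05 (95% interval -0.14 to 0.24). MXD3 lies on chromosome 5 from 177301461 to 177312757 and MXD4 on chromosome 4 from 2247432 to 2262294, both on the minus strand (GRCh38, GENCODE 29).

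MNT, the broadly expressed and largest repressor of the network, was at 11.45, 9.10 and 8.42 FPKM after Scramble, 14.94, 13.31 and 13.71 after Si-FIBP#1 and 12.75, 11.85 and 11.69 after Si-FIBP#2. Every siRNA sample lay above the Scramble samples, by a narrow margin after Si-FIBP#2. The rise after Si-FIBP#1 was 0.50 on the log2 scale (SE 0.10, adjusted p = 0.00318) and held under all alternatives. The rise after Si-FIBP#2 was 0.31 (SE 0.10, adjusted p = 0.0335), and 8 of 18 alternatives ended the call, among them leaving out Scramble replicate 2 (adjusted p = 0.1), Scramble replicate 3 (0.119) or Si-FIBP#2 replicate 1, 2 or 3 (0.095, 0.0563 and 0.0565). MXD1, induced when many cell types differentiate, was at 6.28, 6.07 and 5.91 FPKM after Scramble, 5.12, 5.19 and 5.56 after Si-FIBP#1 and 5.47, 6.41 and 5.40 after Si-FIBP#2. Its log2 fold changes were -0.17 (adjusted p = 0.122) and -0.07 (adjusted p = 0.52). Although no Si-FIBP#1 sample overlapped after Scramble, the call for MXD1 was not made on the deposited values, and was made for Si-FIBP#1 after median-ratio scaling (-0.22, adjusted p = 0.0448) and over Ensembl transcripts alone (-0.35, adjusted p = 0.0177). MXI1, also a MAX-binding repressor, was at 12.03, 13.60 and 12.06 FPKM after Scramble, 12.83, 14.22 and 15.31 after Si-FIBP#1 and 13.84, 14.71 and 13.69 after Si-FIBP#2. The log2 fold changes were 0.16 (95% interval -0.03 to 0.34, adjusted p = 0.141) and 0.15 (95% interval -0.03 to 0.34, adjusted p = 0.142), and neither passed.

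Taking only the positions of samples, 3 tested members lay wholly above Scramble after Si-FIBP#1 (MXD4, MNT, MLX) and 2 wholly below (MXD1, MXD3), where 34.5% and 24.3% of all genes tested did so. With Si-FIBP#2, 4 lay wholly above (MXD4, MXI1, MNT, MLX) and 2 wholly below (MYC, MXD3), beside 36.1% and 21.2% of all genes. These counts were near the background.

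**Figure D1:**
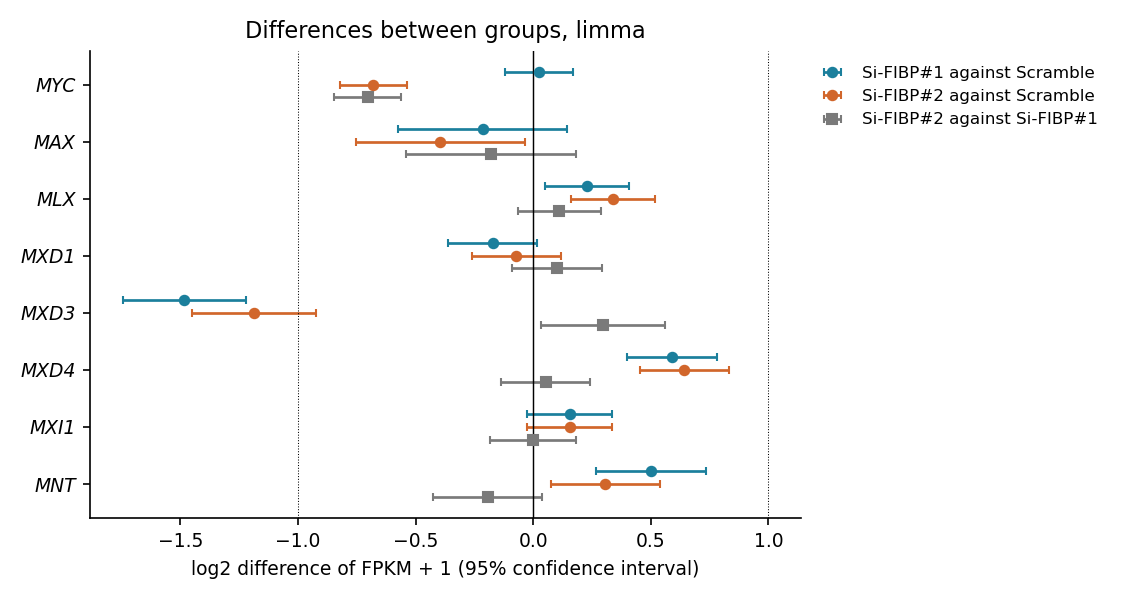
Difference between groups for each tested member, as a log2 difference of FPKM + 1 with its 95% confidence interval. Circles are the siRNAs against Scramble, squares are Si-FIBP#2 against Si-FIBP#1 and dotted lines mark 2-fold. Only the MXD3 estimates lay beyond 2-fold, and MYC was near 0 after Si-FIBP#1 and at -0.68 after Si-FIBP#2.

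MXD4, MNT and MLX, the 3 members that passed as higher with each siRNA, are shown with their promoters, because each of them held the E-box CACGTG that dimers of the network bind. RefSeq windows of 250 bases before to 50 bases after the start (GRCh38.p14) were given for 9 of the 10 members, 12 windows in all, and 3 of the 12 held the motif, each from another gene. It reads the same on both strands and was present in 7.26% of 35116 promoter windows. The sequences are stretches of 100 bases around the motif from the part of each window before the start, 5′ to 3′ on the strand of the gene, with the E-box in capitals. The match was looked for after the levels were known and is a description of the letters only. A second motif, the CCAAT box on either strand, was also looked for. It was present in 4 of the 12 windows and in 34.6% of all windows.
MXD4 (chr4:2262260-2262359, minus strand): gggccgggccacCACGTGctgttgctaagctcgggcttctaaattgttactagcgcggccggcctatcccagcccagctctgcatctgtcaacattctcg
MNT (chr17:2401201-2401300, minus strand): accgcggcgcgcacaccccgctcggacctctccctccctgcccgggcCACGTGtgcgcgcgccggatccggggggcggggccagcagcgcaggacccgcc
MLX (chr17:42567000-42567099, plus strand): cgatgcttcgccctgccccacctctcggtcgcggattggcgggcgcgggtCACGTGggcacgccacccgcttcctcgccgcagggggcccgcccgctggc
In these windows the motif began 238 bases before the RefSeq start in MXD4, 193 before it in MNT and 50 before it in MLX. GENCODE 29 places the starts elsewhere. Its MXD4 gene begins at 2262294 (minus strand) and its MLX gene at 42567068, both inside the stretches shown, so distances depend on the annotation. The windows given for MYCN, MYCL, MAX, MXD1, MXD3 and MXI1 did not contain these 6 letters, and no window was given for MYC.

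The 10 genes had 119 transcripts in the tables, of which 35 met the filter. The split of a gene's reads among its transcripts is an estimate of the quantification software, so transcript values are less certain than gene values. With Si-FIBP#1, 10 of the 35 passed (6 lower and 4 higher), and after Si-FIBP#2 also 10 (7 lower and 3 higher), where 20.7% and 19.1% of 47662 transcripts passed. Between the siRNAs 2 passed, beside 2.46% of all transcripts. This background, 1172 transcripts, was 1621 without Si-FIBP#2 replicate 2 and 888 without Scramble replicate 1, and 337 to 780 without any one of the other 7 samples, the lowest without Si-FIBP#1 replicate 2. The counts of member transcripts also changed when single libraries were left out. After Si-FIBP#1 the count was 6 without Scramble replicate 2, 5 without Si-FIBP#1 replicate 1 and 6 without Si-FIBP#1 replicate 2. Over all transcripts, 6673 of 46118, 7376 of 46217 and 6783 of 46316 passed in these fits, against 9848 of 47662 with all samples. After Si-FIBP#2 the count was 5 without Scramble replicate 2 and 5 without Si-FIBP#2 replicate 3. There 6050 of 46118 and 6656 of 46172 transcripts passed, against 9081 of 47662. Calls that held in every alternative in which the transcript was tested numbered 5 with each siRNA and 0 between the siRNAs.

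The fall of MYC after Si-FIBP#2 was found in its leading annotated transcripts. ENST00000377970, which held 50.7% of the Scramble level, went from 39.4 ± 2.62 FPKM with Scramble to 31.7 ± 3.02 after Si-FIBP#1 and 20.1 ± 2.92 after Si-FIBP#2, and passed after Si-FIBP#2 (log2 fold change -0.94, adjusted p = 0.00075) but not after Si-FIBP#1 (-0.30, adjusted p = 0.0846). ENST00000524013 stood at 16.2 ± 2.40, 16.0 ± 2.48 and 8.76 ± 1.59 FPKM, and passed after Si-FIBP#2 (-0.82, adjusted p = 0.00873). Both calls after Si-FIBP#2 held in every alternative. Between the siRNAs these 2 transcripts differed by -0.64 and -0.81 (adjusted p = 0.0239 and 0.0408), calls that were lost on leaving out single samples. That of ENST00000377970 was lost without any one of the Si-FIBP#1 samples (adjusted p = 0.0522 to 0.0834) or Si-FIBP#2 replicate 1 (0.0832), and that of ENST00000524013 without any one Scramble or Si-FIBP#1 sample (0.0521 to 0.127) or Si-FIBP#2 replicate 1 or 3 (0.0936 and 0.117). In those fits the estimates stayed at -0.56 to -0.68 for ENST00000377970 and -0.66 to -0.90 for ENST00000524013. ENST00000652288, not in GENCODE 29, stood at 15.0 ± 5.06, 21.6 ± 2.99 and 13.0 ± 3.26 FPKM and did not pass. After Si-FIBP#1, where the gene level overlapped with Scramble, ENST00000377970 had a lower mean and ENST00000652288 a higher mean than after Scramble.

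The fall of MXD3 was spread over its transcripts, 4 of the 5 tested being lower with each siRNA. ENST00000513063 was the most abundant and fell from 9.75 ± 0.929 FPKM to 2.26 ± 0.312 after Si-FIBP#1 (log2 fold change -1.72, adjusted p = 7.31e-05) and 3.41 ± 0.485 after Si-FIBP#2 (-1.29, adjusted p = 0.000349). After Si-FIBP#2 the calls of ENST00000439742, ENST00000503782 and ENST00000423571 were each lost without Scramble replicate 1, Scramble replicate 2 or Si-FIBP#2 replicate 3 (adjusted p = 0.0553 to 0.111), and at least 1 of them without each other Scramble or Si-FIBP#2 sample (0.0547 to 0.098). The rise of MXD4 lay mostly in ENST00000337190, which held 83.4% of the gene's level in Scramble and went from 16.3 ± 0.889 to 26.0 ± 1.88 and 26.2 ± 1.34 FPKM (0.64 and 0.65, adjusted p = 0.00081 and 0.000808). ENST00000513063 and ENST00000337190 passed in every alternative. MAX was more mixed. Its coding transcript ENST00000358402 fell from 12.2 ± 2.04 to 7.34 ± 0.720 and 7.22 ± 1.43 FPKM (adjusted p = 0.0211 and 0.0184), calls lost for both siRNAs without Scramble replicate 1 (adjusted p = 0.0676 and 0.0604) or Scramble replicate 2 (0.0725 and 0.0652), for Si-FIBP#1 without Si-FIBP#1 replicate 1 or 2 (0.0515 and 0.0715) and for Si-FIBP#2 without Si-FIBP#2 replicate 2 or 3 (0.054 and 0.0554). The coding transcript ENST00000358664 stood at 13.7 ± 1.49, 18.0 ± 0.785 and 12.3 ± 3.82 FPKM and did not pass. A retained-intron transcript of 327 nt, ENST00000554709, held 32.7% of the MAX level in Scramble and ranged from 5.84 to 21.54 FPKM over the 9 samples.

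Among the remaining members, the coding MLX transcript ENST00000435881 was at 11.2 ± 0.730, 13.7 ± 0.851 and 15.1 ± 0.510 FPKM. Its rise passed after Si-FIBP#2 (0.41, adjusted p = 0.00816) in every alternative. Its rise after Si-FIBP#1 (0.28, adjusted p = 0.038) lost its call without Scramble replicate 2 or 3, any one Si-FIBP#1 sample or Si-FIBP#2 replicate 3 (adjusted p = 0.0553 to 0.123). In MNT, the coding ENST00000174618 was at 5.82 ± 0.420, 7.77 ± 0.586 and 6.71 ± 0.166 FPKM and the retained-intron ENST00000575402 at 1.40 ± 0.255, 2.51 ± 0.145 and 2.47 ± 0.126 FPKM. The first passed after Si-FIBP#1 (adjusted p = 0.0241) and the second with each siRNA (0.0159 and 0.0195), and leaving out Scramble replicate 3 ended all 3 calls (0.0797, 0.0524 and 0.0628). The call of ENST00000174618 also ended without Scramble replicate 2 (0.059) or Si-FIBP#1 replicate 1 or 2 (0.0769 and 0.0643), and those of ENST00000575402 without Si-FIBP#1 replicate 1 (0.0529) and without Scramble replicate 2 or Si-FIBP#2 replicate 3 (0.0544 and 0.0628). In MXD1, the coding ENST00000264444 was at 3.69 ± 0.501, 2.07 ± 0.106 and 2.44 ± 0.887 FPKM and passed as lower after Si-FIBP#1 (adjusted p = 0.0451), a call that ended without any one of the Scramble or Si-FIBP#1 samples (0.0717 to 0.128) and without Si-FIBP#2 replicate 1 (0.0526). A transcript of 8934 nt that the authors assembled at the MXD1 locus was at 1.23 ± 0.191, 1.69 ± 0.0954 and 1.64 ± 0.115 FPKM and did not pass. No MXI1 transcript passed with either siRNA.

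The summed level of the 5 repressors overlapped between the groups while its makeup differed. MXD1, MXD3, MXD4, MXI1 and MNT together gave 75.52, 68.20 and 68.08 FPKM after Scramble, 72.91, 71.00 and 68.72 after Si-FIBP#1 and 75.35, 70.49 and 71.60 after Si-FIBP#2. The MXD3 share of this sum was 32.2 ± 1.38% after Scramble, 10.6 ± 1.42% after Si-FIBP#1 and 13.0 ± 1.14% after Si-FIBP#2. The MXD4 share was 27.7 ± 1.32%, 42.2 ± 1.42% and 42.9 ± 1.69%. MXD4 over MXD3 was thus 0.863 ± 0.0573 in Scramble and 4.03 ± 0.431 and 3.32 ± 0.266 with the siRNAs, with no overlap.

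Set against the repressors, the MYC family differed between the siRNAs. The ratio of summed MYC, MYCN and MYCL to the summed repressors was 1.07, 1.03 and 1.20 after Scramble, 1.11, 1.12 and 1.11 after Si-FIBP#1 and 0.657, 0.695 and 0.645 after Si-FIBP#2. The Si-FIBP#1 samples lay within the Scramble range and all Si-FIBP#2 samples lay below it. MYC over MAX was 1.67 ± 0.318, 1.96 ± 0.168 and 1.38 ± 0.338. Each siRNA group overlapped with Scramble, and the siRNA groups did not overlap with each other, the lowest Si-FIBP#1 sample being at 1.78 and the highest Si-FIBP#2 sample at 1.72. MAX here includes the retained-intron transcript ENST00000554709, at 5.84 to 21.54 FPKM over the samples. With that transcript left out of MAX, every Si-FIBP#2 sample lay below all Scramble samples, replicate 1 by a narrow margin, while Si-FIBP#1 still overlapped with Scramble. These are ratios of mRNA levels, described without a test, and protein was not measured in these libraries.

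Of 24 other partners and cofactors of the network, 23 were tested. With Si-FIBP#1, 4 were higher and 10 lower, and after Si-FIBP#2, 3 were higher and 11 lower, where 27.8% and 31.1% of all genes were higher and 19.9% and 17.7% lower. The median log2 fold changes were -0.09 and -0.18, beside 0.07 and 0.11 over all genes tested, and none changed more than 2-fold. Without Scramble replicate 2, 9 instead of 14 passed after Si-FIBP#1, where 6005 of 14843 genes passed instead of 7146 of 14985. MGA, a very large MAX partner, was at 8.34 ± 0.481 FPKM in Scramble and 9.52 ± 1.25 and 10.4 ± 0.752 with the siRNAs. Its rise passed after Si-FIBP#2 (0.29, adjusted p = 0.0338) and not after Si-FIBP#1 (0.17, adjusted p = 0.184), and the call was lost without Scramble replicate 2 or 3 (0.106 and 0.0768) or Si-FIBP#2 replicate 2 or 3 (0.0979 and 0.0612). With all samples, it was also lost over Ensembl transcripts alone (adjusted p = 0.23), after median-ratio scaling (0.103) and with no filter (0.0709). MLXIP, the MondoA partner of MLX, was at 12.9 ± 0.657, 14.4 ± 1.05 and 14.1 ± 0.378 FPKM and did not pass (adjusted p = 0.115 and 0.166). MLXIPL, the other glucose-sensing partner, was at 0.33 to 1.00 FPKM and was not tested.

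Of the 21 genes that act on the stability of MYC protein, all were tested. With Si-FIBP#1, 7 were higher and 7 lower, and after Si-FIBP#2, 6 were higher and 9 lower, with medians of -0.03 and -0.13. Among all genes tested, 27.8% were higher and 19.9% lower after Si-FIBP#1 and 31.1% and 17.7% after Si-FIBP#2, with medians of 0.07 and 0.11. Falls of more than 2-fold with either siRNA were found in CIP2A, PLK1, AURKA and CDK2. CIP2A, an inhibitor of PP2A that protects MYC from degradation, went from 22.7 ± 0.130 FPKM to 7.52 ± 0.333 and 10.2 ± 0.594 (log2 fold changes -1.48 and -1.08). PLK1, a mitotic kinase, went from 98.0 ± 1.39 to 35.2 ± 1.03 and 41.7 ± 5.28 (-1.45 and -1.22). AURKA, the mitotic kinase that stabilises MYCN, went from 97.0 ± 3.62 to 35.2 ± 1.26 and 51.2 ± 4.08 (-1.44 and -0.91), and CDK2, an S phase kinase, from 56.0 ± 1.71 to 28.4 ± 1.73 and 26.4 ± 2.04 (-0.96 and -1.06). All 8 changes of these 4 genes passed with an adjusted p of 5.98e-06 or below and kept their call in all alternatives. Between the siRNAs 4 of the 21 passed, a share near the 15.4% of all genes that did. CIP2A and AURKA were higher after Si-FIBP#2 than after Si-FIBP#1 (0.40 and 0.53, adjusted p = 0.00478 and 0.00114), and GSK3A and TRPC4AP, named after their values were seen, were lower (-0.48 and -0.23, adjusted p = 0.0129 and 0.0202). Only 1 gene of the list was lower, instead of 2, without Si-FIBP#1 replicate 1 or 2 or Si-FIBP#2 replicate 1 or 3. The same held when the compared groups were fitted alone. PLK1 did not pass (0.23, adjusted p = 0.0922), but was called higher after Si-FIBP#2 under TPM scaling (0.28, adjusted p = 0.0441) and without Si-FIBP#2 replicate 2 (0.34, adjusted p = 0.0015).

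On the list of genes known to be activated by MYC, more were lower than higher. This list and the others were chosen with earlier results of these data known, so their counts are descriptions only. Of the 50 on the list 48 were tested, and 27 were lower and 1 higher after Si-FIBP#1, 32 lower and 0 higher after Si-FIBP#2, where 19.9% and 17.7% of all genes were lower and 27.8% and 31.1% higher. The medians were -0.26 and -0.34, where all genes tested had 0.07 and 0.11. MYC mRNA itself had a log2 fold change of 0.02 after Si-FIBP#1 and -0.68 after Si-FIBP#2, and its part in these falls was not tested. MCM5, a subunit of the replicative helicase, went from 51.4 ± 1.02 FPKM to 17.0 ± 0.499 and 18.2 ± 1.89 (log2 fold changes -1.54 and -1.45). TCOF1, a nucleolar factor of rRNA transcription, went from 39.9 ± 1.68 to 17.1 ± 0.880 and 14.1 ± 0.924 (-1.18 and -1.44), and MCM4, also of the helicase, from 182 ± 13.2 to 72.0 ± 5.62 and 80.6 ± 1.85 (-1.33 and -1.17). ODC1, the first enzyme of polyamine synthesis, went from 193 ± 3.82 to 79.4 ± 3.20 and 94.1 ± 16.8 (-1.27 and -1.05). LDHA, lactate dehydrogenase A, went from 482 ± 10.9 to 218 ± 10.8 and 245 ± 28.2 (-1.14 and -0.98), and TMEM97, a sterol-linked membrane protein, from 19.7 ± 1.67 to 8.99 ± 0.616 and 10.2 ± 0.710 (-1.05 and -0.89). All 12 changes passed (adjusted p of 5.54e-05 or below) and stayed past the threshold in every alternative.

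Between the siRNAs, 13 of the 48 activated targets were lower and 2 higher after Si-FIBP#2, where 5.8% of all genes were lower and 9.58% higher, and the median difference was -0.07, beside 0.04 over all genes. The balance over all genes turned with the scaling, from 1435 higher and 869 lower on deposited values to 1102 and 1157 after median-ratio scaling and 1903 and 643 after TPM scaling. The activated targets numbered 1 higher and 17 lower after median-ratio scaling and 2 higher and 10 lower after TPM scaling, and 1 to 3 higher and 10 to 16 lower on leaving out 1 sample. Of the 6 genes named above, TCOF1 alone differed between the siRNAs (-0.26, adjusted p = 0.0313), and that call was lost without Scramble replicate 2 (0.0537), without Si-FIBP#1 replicate 1 or 2 (0.101 and 0.0837) and without Si-FIBP#2 replicate 2 or 3 (0.0557 and 0.105). It was also lost after TPM scaling (adjusted p = 0.0549), over Ensembl transcripts alone (0.0588), with no filter (0.0529) and with the compared groups fitted alone (0.0732). ODC1 and LDHA did not pass between the siRNAs, but without Si-FIBP#2 replicate 2 both were higher after Si-FIBP#2 (0.38 and 0.24, adjusted p = 0.00177 and 0.0254). MCM5, MCM4 and TMEM97 did not pass, with differences of 0.09, 0.16 and 0.16.

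Genes that MYC is known to repress moved in both directions. Of 10, 9 were tested, 3 higher and 3 lower after Si-FIBP#1 and 4 higher and 2 lower after Si-FIBP#2, with medians of -0.09 and 0.18. All genes tested had 47.7% and 48.8% called and medians of 0.07 and 0.11. THBS1, a secreted inhibitor of angiogenesis, went from 31.8 ± 2.00 FPKM to 9.94 ± 1.82 and 2.75 ± 0.718, log2 fold changes of -1.60 and -3.15 (adjusted p = 2.56e-05 and 8e-07), and the siRNAs differed by -1.55 (adjusted p = 0.000362). CDKN1A, the CDK inhibitor p21, was at 48.2 ± 1.28, 22.6 ± 1.39 and 54.6 ± 2.5 FPKM. It fell after Si-FIBP#1 (-1.06, adjusted p = 1.4e-06) and passed as higher after Si-FIBP#2 (0.18, adjusted p = 0.0352), and the siRNAs differed by 1.24 (adjusted p = 2.41e-05). The small rise lost its call without any one of the 3 Scramble samples or Si-FIBP#2 replicate 2 or 3 (adjusted p = 0.0518 to 0.0987) and after median-ratio scaling (0.08, adjusted p = 0.298). TXNIP and ARRDC4, the textbook targets of MLXIP-MLX dimers, were near 0, TXNIP at 0.04 FPKM in 1 sample and listed at 0 in the others, and ARRDC4 at 0.01 to 0.17 FPKM, so neither was tested.

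The genes whose pattern over the 9 samples was most like that of MYC were CCNC, UBAC2, NDUFB10, KIRREL1 and PPP1R18, by the root mean square difference of log2(FPKM + 1) after centring. This difference was 0.0823 to 0.0973, where the median gene had 0.426. CCNC, for example, stood at 69.8 ± 1.87, 72.8 ± 1.98 and 44.7 ± 3.73 FPKM, flat after Si-FIBP#1 and lower after Si-FIBP#2 as MYC was. The genes most like MXD3 were XRCC2, TACC3, U2AF2, LIG1 and FANCD2, at 0.0794 to 0.124 against a median of 0.718. XRCC2, of homologous recombination, stood at 7.52 ± 0.0586, 2.05 ± 0.155 and 2.63 ± 0.296 FPKM. FANCD2, of the Fanconi anemia pathway, and LIG1, the replicative DNA ligase, showed falls of -1.67 and -1.44 after Si-FIBP#1 and -1.30 and -1.15 after Si-FIBP#2 on the log2 scale. Likeness of pattern was measured over 9 samples in 3 groups and is given as a description.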

How the data were processed

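RNA of 9 H1299 samples was sequenced after poly(A) selection. The authors deposited 1 table per sample with a value per transcript, which from its range and rounding is FPKM. Per the labels, the submitters' processing notes name HISAT2 and StringTie, and the versions, annotation and genome build are not given in the sources used here. Transcripts assembled by the authors held 5.45% to 5.84% of the FPKM. Strand use in quantification is not stated, so reads of overlapping antisense genes cannot be told apart.

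FPKM were summed per gene identifier. The filter kept genes that reached 1 FPKM in 3 or more samples, and these entered limma 3.58.1 (R 4.3.3; empirical Bayes with trend) on log2(FPKM + 1), in 1 fit over all groups, with Benjamini-Hochberg adjustment; transcripts likewise. The pseudocount understates changes of low genes. Python 3.11.15, pandas 2.3.3 and numpy 2.4.6 made the summaries. The fit was tested on simulated data. Depth was estimated because FPKM do not state it, and its steps were only partly resolved (mean cosine 0.750 to 0.811).

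The members and the 5 lists were chosen with earlier results of these data known. Named genes were the members and FIBP, at most 6 genes per list past 2-fold with either siRNA, by size, with MGA, MLXIP, MLXIPL, TXNIP and ARRDC4 always, transcripts with a mean of at least 1 FPKM in a group, and the 5 genes nearest in pattern to MYC and to MXD3. Alternatives were TPM and median-ratio scaling, a pseudocount of 0.1, no filter or one of 5 FPKM, Ensembl transcripts alone, transcripts of at least 400 nt (added after seeing the data), the compared groups alone, a block for the replicate number, and the removal of each sample in turn. Promoter windows were from RefSeq (GRCh38.p14) and gene positions from GENCODE 29.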

Additional observations from a re-analysis of the deposited data

Results flagged for a closer look

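MYC differed between the 2 siRNAs against FIBP. The log2 difference of Si-FIBP#2 against Si-FIBP#1 was -0.70 by the test of the difference itself (limma, Benjamini-Hochberg-adjusted p = 0.00032), lower in 3 of 3 samples, and it stayed between -0.74 and -0.66 in all 18 alternatives, with adjusted p from 0.00012 to 0.00256. FIBP itself stood at 6.52 ± 1.93 and 7.09 ± 1.15 FPKM with the siRNAs (n = 3), and the part of any other difference between the siRNAs in the MYC result was not tested.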

How the results depend on the processing

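Among the counts of calls, 339 alternative values stayed within 1.5 times the value reported and 22 did not. Member transcripts called fell from 10 to 6 with each siRNA with no filter on low values and to 6 with a filter of 5 FPKM, and from 2 to 0 between the siRNAs with no filter. Over all transcripts, 9848 and 9081 of 47662 passed with the siRNAs in the main fit. With no filter 6641 and 6124 of 152823 passed, and 424 between the siRNAs. With a filter of 5 FPKM 6864 and 6697 of 15732 passed. Leaving out 1 sample gave 5 to 10 member transcripts with each siRNA and 0 to 3 between the siRNAs. The partners and cofactors called with Si-FIBP#1 ranged from 9 to 15 on leaving out 1 sample, where calls over all genes ranged from 6005 to 7602. With no filter, 1 of the targets TXNIP and ARRDC4 was called with each siRNA, in place of 0. The same replicate numbers correlated at -0.06 to 0.10 and unlike numbers at -0.14 to 0.05. Between the siRNAs, same numbers were at 0.05 to 0.10 and unlike numbers at -0.06 to 0.01. Values were centred within groups of 3, which holds the average of these correlations over all pairs of numbers near 0, but not each single one. The labels do not say whether samples were paired by number. The main fit did not pair samples by number. With the replicate block, the transcripts called between the siRNAs went from 2 to 0 and calls were lost for MLX (adjusted p = 0.0625) and its transcript ENST00000435881 (0.0623) and the MXD1 transcript ENST00000264444 (0.0613) with Si-FIBP#1, for CDKN1A (0.059) and the MXD3 transcript ENST00000423571 (0.0612) with Si-FIBP#2, and for the MYC transcripts ENST00000377970 (0.0631) and ENST00000524013 (0.0566) between the siRNAs. It changed no other call of the members, FIBP, MGA, MLXIP, the list genes named for a 2-fold change or the transcripts called. Signs turned only near 0: MYC with Si-FIBP#1 was -0.021 with TPM scaling, -0.033 with median-ratio scaling and -0.043 to 0.061 on leaving out 1 sample. MXI1 between the siRNAs was 0.041 with TPM scaling and -0.064 to 0.055 on leaving out 1 sample. MLXIP between the siRNAs was 0.022 with TPM scaling and -0.069 to 0.030 on leaving out 1 sample, and FIBP was -0.10 to 0.26. The cause was not tested. MYC with Si-FIBP#2, MXD3 and MXD4 kept direction and call in every alternative. After median-ratio scaling, genes rose and fell in 3595 and 3400 cases with Si-FIBP#1 against 4170 and 2976 on deposited values. FPKM rounded to 2 decimals with an estimated depth limits what can be said of MYCN and MYCL.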
